A study of Homo sapiens with 18 samples.

Results

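The lysosome genes described here are 46 protein coding genes: the 21 whose names begin with ATP6V0 or ATP6V1, and 25 chosen by name for lysosomal membrane proteins, cathepsins, other luminal proteins and the transcription factors TFEB, TFE3 and MITF. They were taken from a table of 27166 genes, of which 16413 are protein coding. The RNA came from 3 human cancer cell lines: DLD1, a colon adenocarcinoma line, HUH7, a hepatocellular carcinoma line of liver, and NCIH838, a lung adenocarcinoma line. In each line, 3 libraries of CTRL cells, given lentiCRISPR v2 with a non-targeting guide, were set beside 3 libraries of KDSR KO cells, given the same vector with the guide KDSR g1. All cells were grown in DMEM with fetal bovine serum, selected with puromycin for 5 days, and lysed on day 8 (HUH7, DLD1) or day 10 (NCIH838) after infection, so that line and day of harvest cannot be told apart. A single KDSR guide was used.

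The lysosome is the acidic compartment in which cells break down proteins, lipids, glycans and glycosphingolipids. The V-ATPase acidifies it: its cytosolic V1 sector hydrolyses ATP and turns a ring in the membrane-bound V0 sector, which carries protons inward. Many of the genes carry the E-box CACGTG near their start, which TFEB, TFE3 and MITF bind, and which lies at the centre of the motif known as CLEAR.

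Each library had 17039634 to 20385767 reads, and levels are in TPM, a share of the measured mRNA corrected for gene length. KDSR, which encodes an early enzyme of sphingolipid synthesis, was 37.2% lower in KDSR KO than in CTRL in HUH7 and 35.2% lower in DLD1. An exact permutation test, two-sided, gave p = 0.1 for each line, the smallest p that 3 libraries against 3 allow. In NCIH838, KDSR had a mean of 13.4 ± 1.39 TPM over CTRL libraries and of 12.9 ± 0.821 TPM over those labelled KDSR KO (SD, n = 3 each; exact permutation p = 0.7), so the mRNA level does not tell the labels of that line apart. A guide can disable a gene without lowering its mRNA. Liver markers summed to 16499 to 18020 TPM in HUH7, and 6 intestinal markers to 351 to 390 TPM in DLD1 CTRL and 278 to 289 TPM in DLD1 KDSR KO. The 4 lung epithelial markers in the table summed to only 0.690 to 1.54 TPM in NCIH838, with NKX2-1, the defining factor, at 0 in all of them but 1. The 5 macrophage and leukocyte markers in the table summed to 4.09 to 7.55 TPM in HUH7 and DLD1. In NCIH838 they summed to 18.8 to 26.2 TPM, with overlapping groups. CD14 alone gave nearly all of the sum in every NCIH838 library, so the higher sum there rests on that gene. PTPRC, CSF1R, ITGAM and CD163 were each below 1 TPM in every library of the 3 lines. PTPRC and ITGAM were higher in every HUH7 library than in any NCIH838 library.

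Sequence upstream of the start site, from RefSeq on build GRCh38.p14, is shown for 5 members whose promoters hold CACGTG and for ATP6V0A1, which was called in both DLD1 and NCIH838 and has none. The 5 were all called in NCIH838, CTSA lower and the others higher, and do not stand for all members with CACGTG. CD63 and ATP6V0E2, called lower there, also hold it and are not shown. Nor are ATP6V0D1, ATP6V1G1, GAA and LAMP1, which hold it and were not called there. Each run is the 150 bases before the start site, read 5′ to 3′ on the gene's own strand. Capitals mark CACGTG, or the longer TCACGTGA where it is present. The intervals are chr19:7522474-7522623 (plus strand) for MCOLN1, chr20:45891185-45891334 (plus) for CTSA, chr1:43974810-43974959 (plus) for ATP6V0B, chr11:1763928-1764077 (minus) for CTSD, chr6:31862822-31862971 (minus) for NEU1 and chr17:42458728-42458877 (plus) for ATP6V0A1.
MCOLN1: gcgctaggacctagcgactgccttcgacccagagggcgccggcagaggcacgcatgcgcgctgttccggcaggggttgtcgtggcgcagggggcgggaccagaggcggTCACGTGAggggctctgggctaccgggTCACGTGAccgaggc
CTSA: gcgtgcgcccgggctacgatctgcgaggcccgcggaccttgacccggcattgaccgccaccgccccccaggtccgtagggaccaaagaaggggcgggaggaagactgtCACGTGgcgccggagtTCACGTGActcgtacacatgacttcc
ATP6V0B: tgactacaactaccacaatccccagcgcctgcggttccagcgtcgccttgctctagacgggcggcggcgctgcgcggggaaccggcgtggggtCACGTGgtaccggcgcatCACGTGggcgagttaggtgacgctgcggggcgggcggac
CTSD: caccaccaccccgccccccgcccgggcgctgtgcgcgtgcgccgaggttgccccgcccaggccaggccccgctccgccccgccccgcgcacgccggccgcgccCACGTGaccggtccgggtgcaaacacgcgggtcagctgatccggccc
NEU1: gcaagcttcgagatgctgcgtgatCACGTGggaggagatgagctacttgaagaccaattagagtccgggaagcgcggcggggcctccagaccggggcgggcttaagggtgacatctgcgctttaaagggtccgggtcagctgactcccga
ATP6V0A1: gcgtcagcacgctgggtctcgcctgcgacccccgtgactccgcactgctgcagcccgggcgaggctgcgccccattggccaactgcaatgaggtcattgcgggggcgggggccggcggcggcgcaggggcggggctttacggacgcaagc

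A promoter window, from 250 bases before the start site to 50 after it, was given for 34 of the 46 members. CACGTG, which reads the same on both strands, was in 11 of these 34 windows (32.4%), against 2548 of 35116 windows of the same length (7.26%). The 11 were ATP6V0B, ATP6V0D1, ATP6V0E2, ATP6V1G1, CD63, CTSA, CTSD, GAA, LAMP1, MCOLN1 and NEU1. The longer TCACGTGA, which contains CACGTG, was in 6 of 34 members (17.6%: ATP6V0D1, ATP6V1G1, CTSA, GAA, LAMP1 and MCOLN1) and in 344 windows in all (0.980%). A match of letters describes the sequence and does not show binding.

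The lines differed widely in their lysosome genes before any knockout. Among CTRL libraries, DLD1 had the highest mean level for 21 members, HUH7 for 14 and NCIH838 for 11. These counts include ATP6V0D2 and ATP6V1G2, with CTRL means under 1 TPM in each line, and were not made over all genes. Differences between lines were tested with limma on log2(TPM + 1), and a gene was called at a Benjamini-Hochberg adjusted p under 0.05 over all genes tested. For 45 members, 20 were called higher and 18 lower in DLD1 than in HUH7, where 70.6% of all genes were called (38.7% higher and 31.9% lower). In NCIH838, 12 were called higher and 24 lower than in HUH7, where 73.0% of all genes were called (39.2% higher and 33.8% lower). Against DLD1, 15 were called higher and 28 lower in NCIH838, where 73.0% of all genes were called (35.6% higher and 37.4% lower). The remaining member, ATP6V1G2, a variant of the peripheral stalk subunit G best known from brain, had a mean under 1 TPM in every line.

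**Figure D1:**
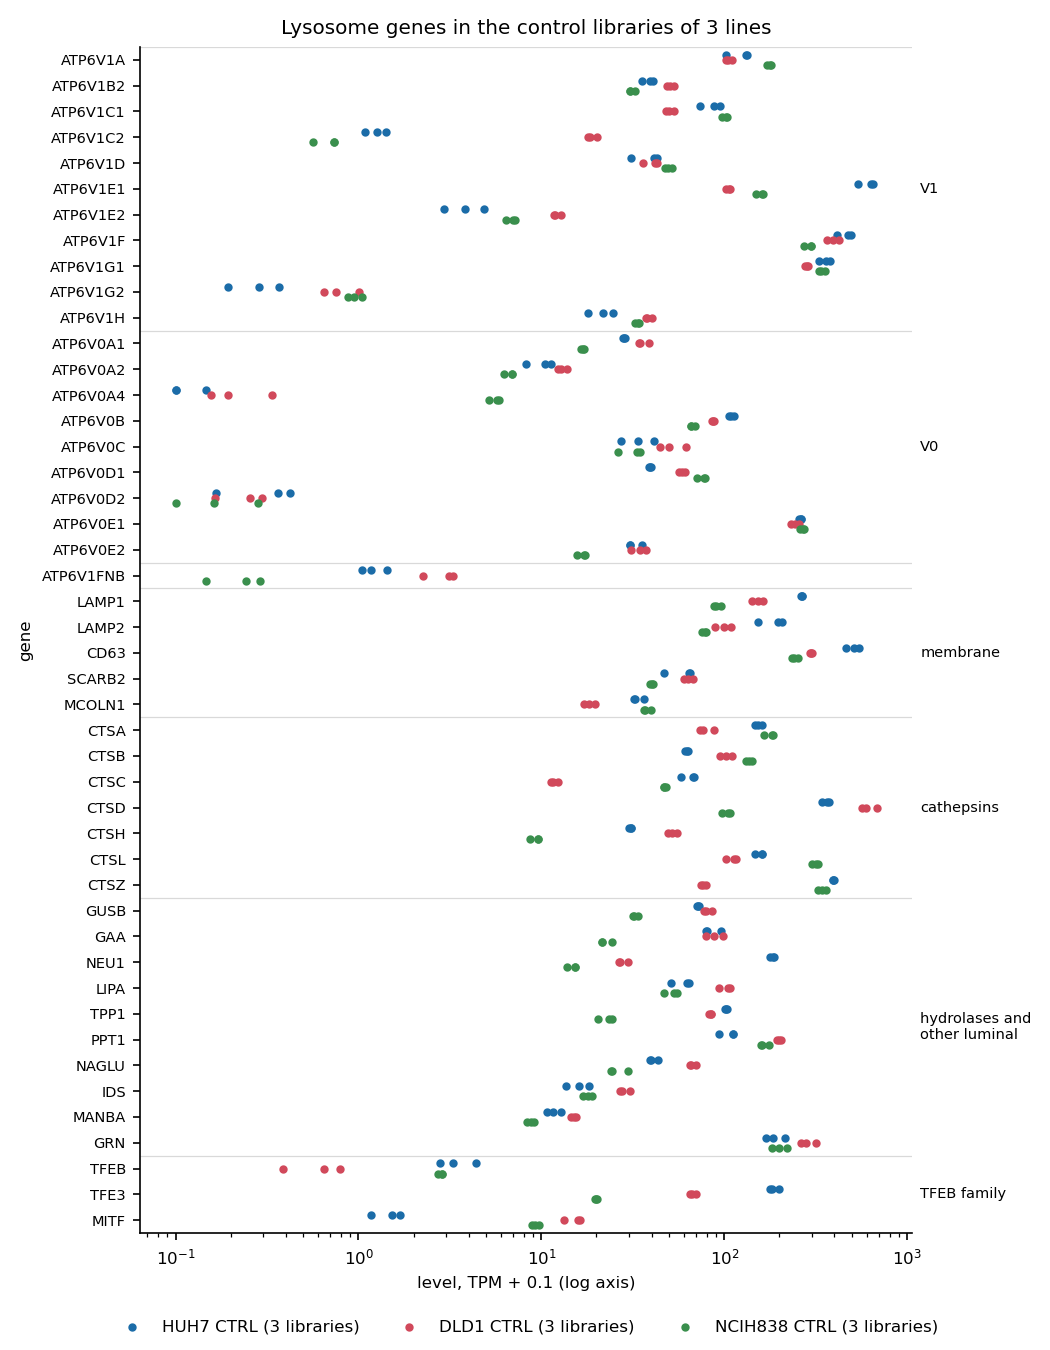
Levels of the 46 lysosome genes in CTRL libraries, as TPM + 0.1 on a log axis, each point 1 library, with genes on the vertical axis grouped by role. ATP6V1C2 is far higher in DLD1, NEU1 and TFE3 in HUH7, and ATP6V0A4 in NCIH838, while ATP6V0E1 is nearly level across the lines.

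In the V1 sector, ATP6V1E1, the main gene of peripheral stalk subunit E, was at 536, 648 and 632 TPM in HUH7 CTRL, at 108, 102 and 106 TPM in DLD1 CTRL and at 149, 163 and 160 TPM in NCIH838 CTRL. Every HUH7 library was far above every library of the other lines. ATP6V1E1 was lower by 2.51 ± 0.07 on the log2 scale in DLD1 than in HUH7 (SE; limma adjusted p = 1.04e-14). The ratio of its TPM to that of ATP6V1A, the catalytic subunit, was 4.69 to 5.23 in all HUH7 libraries and 0.85 to 1.14 in all libraries of the other lines. The processed pseudogene ATP6V1E1P1 is also listed, at a mean of 1.53 TPM over the 18 libraries. ATP6V1C2, a variant of the regulatory subunit C known from kidney and lung, was at 20.0, 18.2 and 17.9 TPM in DLD1 CTRL and at 1.31 TPM or less in each CTRL library of the others. It had the widest ratio between line means of the V1 members at 1 TPM or more in any line, 32.3 for DLD1 over NCIH838, against 5.76 for ATP6V1E1 in HUH7 over DLD1. Its gene body overlaps that of PDIA6, on the opposite strand and at a mean of 271 TPM, and the sources used here do not say whether strand was used in counting.

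In the V0 sector, ATP6V0A4, a variant of the proton channel subunit a known from kidney, was at 5.78, 5.10 and 5.59 TPM in NCIH838 CTRL and below 0.3 TPM in every library of HUH7 and DLD1. ATP6V0E1, a small membrane subunit, was at 255 to 263 TPM in HUH7, 233 to 254 TPM in DLD1 and 258 to 273 TPM in NCIH838. It was not called between HUH7 and either of the other lines (adjusted p = 0.0650 and 0.549, limma), but was called higher in NCIH838 than in DLD1.

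Among luminal proteins, all 10 hydrolases and other luminal proteins were called lower in NCIH838 than in DLD1, where 37.4% of all genes were called lower. NEU1, the lysosomal sialidase, was at 179, 184 and 187 TPM in HUH7 CTRL, 26.6, 26.9 and 29.7 TPM in DLD1 CTRL and 13.8, 15.1 and 15.1 TPM in NCIH838 CTRL. The 3 lines did not overlap, and NEU1 was lower by 3.55 ± 0.06 on the log2 scale in NCIH838 than in HUH7 (limma adjusted p = 3.57e-17). The cathepsins, proteases of the lumen, had no common order. CTSD, an aspartic protease, had CTRL means of 359 TPM in HUH7, 617 TPM in DLD1 and 103 TPM in NCIH838. CTSZ, a cysteine carboxypeptidase, had 394, 76.7 and 342 TPM in the same order of lines. CTSC, a dipeptidyl peptidase, had 64.8, 11.6 and 47.3 TPM. DLD1 was thus the line with the highest CTSD and with the lowest CTSZ and CTSC.

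LAMP1, an abundant glycoprotein of the lysosomal membrane, had CTRL means of 265 TPM in HUH7, 153 TPM in DLD1 and 91.0 TPM in NCIH838, in the same order as TFE3. TFE3 (chromosome X, 49028726 to 49043486, hg38) was at 198, 182 and 179 TPM in HUH7 CTRL, 64.9, 66.8 and 70.0 TPM in DLD1 CTRL and 19.9, 19.7 and 19.6 TPM in NCIH838 CTRL. It was the most abundant of the 3 related factors in each line, and lower by 3.17 ± 0.05 on the log2 scale in NCIH838 than in HUH7 (limma adjusted p = 1.51e-17). MITF, the family member known for pigment cells, had CTRL means of 1.36, 15 and 9.16 TPM in HUH7, DLD1 and NCIH838. TFEB, the family member best known for lysosome genes, was at 2.70 to 4.31 TPM in HUH7 CTRL, 2.61 to 2.77 TPM in NCIH838 CTRL and 0.289 to 0.694 TPM in DLD1 CTRL.

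With KDSR KO, the members moved in both directions, and the number that moved differed by line. In HUH7, 0 of 43 members tested were called, where 0.0% of all genes were called. In DLD1, 5 members rose and 6 fell of 42 tested, where 17.3% of all genes were called (5.16% higher and 12.1% lower). In NCIH838, 13 rose and 12 fell of 43 tested in the libraries labelled KDSR KO, where 42.5% of all genes were called (15.7% higher and 26.8% lower). The 13 include ATP6V0D2, which entered the test there only through its KDSR KO libraries. Median log2 differences over the members tested were -0.06 in HUH7, -0.02 in DLD1 and -0.002 in NCIH838, against 0.02, -0.07 and -0.09 over all genes tested in each line. In bulk RNA, fewer cells of a kind and less RNA per cell cannot be told apart.

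**Figure D2:**
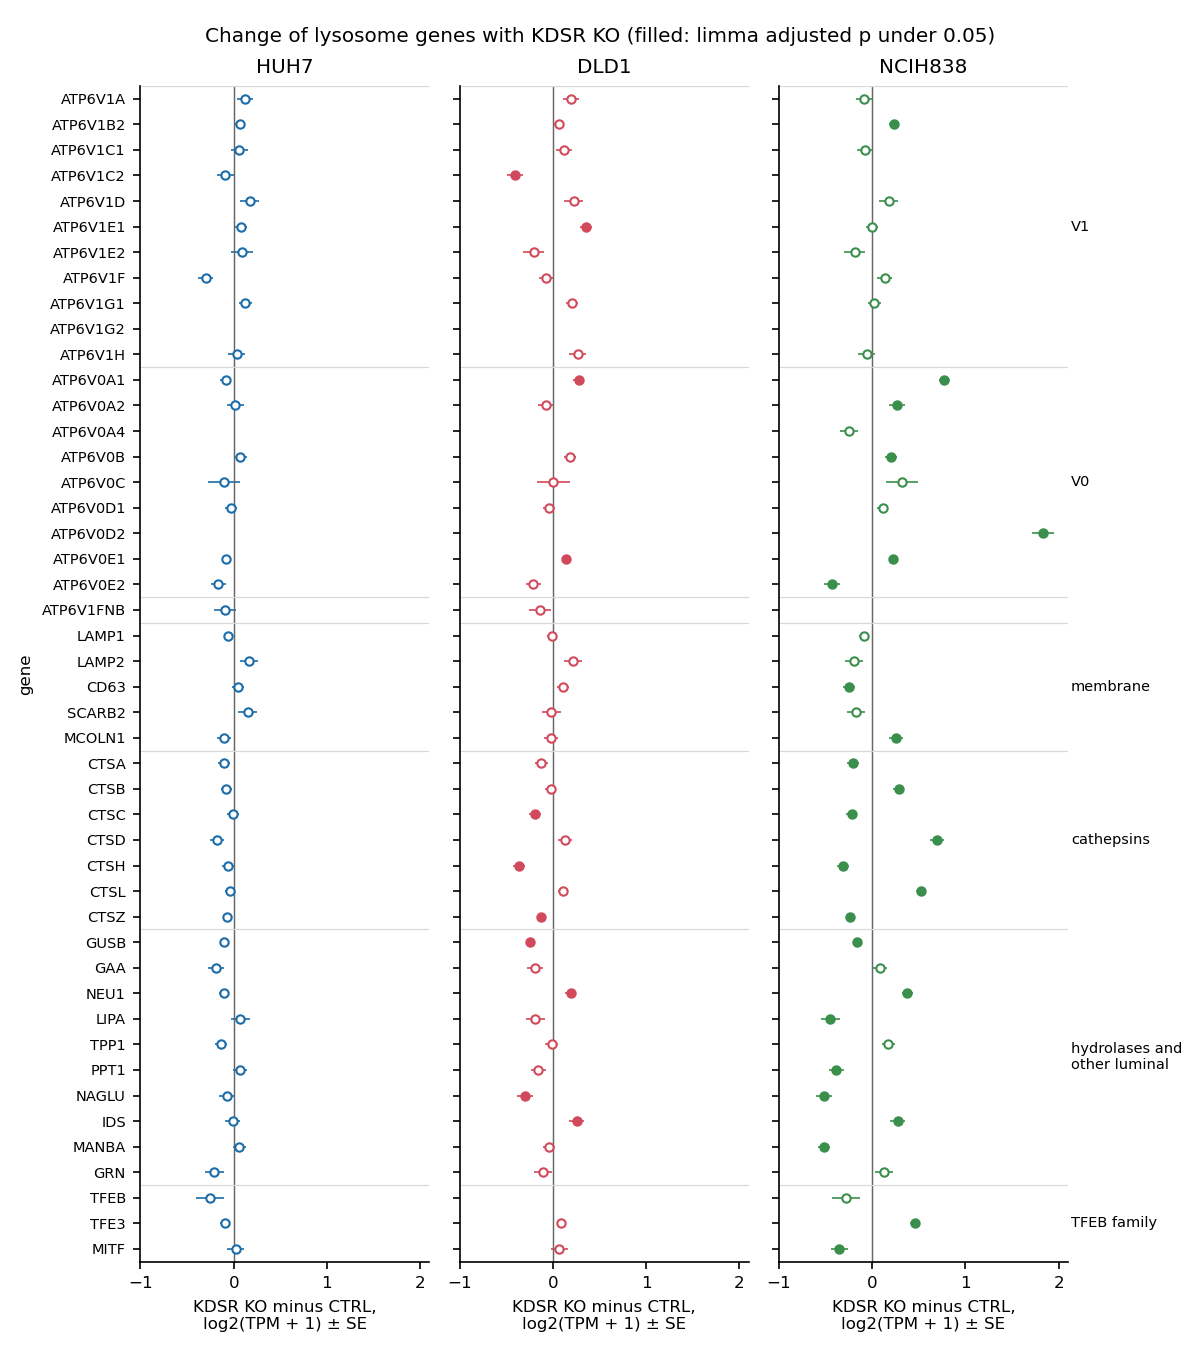
Log2(TPM + 1) difference between KDSR KO and CTRL for each lysosome gene in each line, with genes on the vertical axis grouped by role; points are limma estimates from 3 libraries against 3, bars are SE, and filled points have an adjusted p under 0.05. No point is filled in HUH7, 11 are in DLD1 and 25 in NCIH838, where rises and falls lie on both sides of 0 within most roles. The 25 include ATP6V0D2, which entered the test only through its KDSR KO libraries.

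The split of the DLD1 calls depended on the scaling of the libraries. It was 5 higher and 6 lower as deposited, 9 and 4 with median ratio scaling, 13 and 3 with quantile normalization, 8 and 4 without genes of mitochondrial DNA and rRNA, 9 and 5 with limma voom on recovered reads, and 12 and 4 with the trend on GC content removed, an alternative added after the data were seen. The share of TPM from mitochondrial DNA was 8.96%, 6.5% and 6.32% in the DLD1 CTRL libraries and 8.90%, 8.35% and 9.59% in DLD1 KDSR KO, and its part in the DLD1 calls beyond the fit without these genes was not tested. Calls that held in DLD1 under every alternative and with each library left out were ATP6V1E1, CTSH and GUSB.

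In the V1 sector, most members were not called with KDSR KO. In DLD1, ATP6V1E1 (chromosome 22, 17592136 to 17628818, hg38) rose from 108, 102 and 106 TPM in CTRL to 132, 137 and 135 TPM in KDSR KO. All KDSR KO libraries were above all CTRL libraries, and the log2 difference was 0.36 ± 0.07 (limma adjusted p = 0.00256). In NCIH838, the same gene was at 149, 163 and 160 TPM in CTRL, against 163, 165 and 145 TPM in KDSR KO, with overlapping groups and a log2 difference of -0.002 ± 0.07 (limma adjusted p = 0.988). The difference between these effects was itself called, at -0.36 ± 0.09 in NCIH838 minus DLD1 (limma adjusted p = 0.0170).

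ATP6V1C2 fell in DLD1, from 20.0, 18.2 and 17.9 TPM to 14.1, 14.6 and 12.8 TPM (log2 difference -0.41 ± 0.09, limma adjusted p = 0.00548), the largest fall of a member in that line. With a pseudocount of 0.1 its adjusted p was 0.0685. In NCIH838 it had 9, 12 and 12 reads in CTRL and 17, 16 and 18 in KDSR KO, below the minimum for the test, and the fit without that minimum gave 0.26 ± 0.09 (limma adjusted p = 0.0339). In NCIH838, ATP6V1B2, the non-catalytic partner of subunit A in the ATP-hydrolysing ring, rose from 32.5, 30.6 and 30.3 TPM to 38.2, 37.1 and 35.2 TPM (0.23 ± 0.06, limma adjusted p = 0.00403). It was the only V1 member called in NCIH838, of 9 tested, where 42.5% of all genes were called. ATP6V1A, the catalytic partner, was called in no line, with log2 differences of 0.12, 0.19 and -0.09 in HUH7, DLD1 and NCIH838. The other V1 members, ATP6V1C1, ATP6V1D, ATP6V1E2, ATP6V1G1 and ATP6V1H, were called in no line. In DLD1 their log2 differences ran from -0.21 (ATP6V1E2, a testis form of subunit E) to 0.26 (ATP6V1H, the regulatory subunit H; limma adjusted p = 0.0640). ATP6V1A passed in DLD1 with median ratio scaling, with quantile normalization, with DLD1 fitted alone, with limma voom and with the GC trend removed. ATP6V1H and ATP6V1G1 were called higher in DLD1 with median ratio scaling, with quantile normalization, without genes of mitochondrial DNA and rRNA, with DLD1 fitted alone, with limma voom and with the GC trend removed. ATP6V1D was called higher in DLD1 with quantile normalization, with the GC trend removed and without CTRL replicate 1 of HUH7. In NCIH838 it was called higher with median ratio scaling, with quantile normalization and with the GC trend removed. ATP6V1FNB, which takes its name from its neighbour ATP6V1F, was at 0.0463 to 3.19 TPM in all libraries and was called in neither line tested.

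ATP6V1F, a subunit of the central rotor, gave the smallest unadjusted p of the members in HUH7. It was at 495, 472 and 415 TPM in CTRL, against 372, 372 and 374 TPM in KDSR KO. The groups did not overlap, with a log2 difference of -0.30 ± 0.08 (limma p across all genes, 0.00215 unadjusted and 0.312 adjusted). Of the 43 members tested in HUH7, 4 had an unadjusted p under 0.05, all lower in KDSR KO: ATP6V1F, CTSD, GUSB and GAA. Over all 16104 genes tested there, 1806 had such a p, 987 of them lower. In HUH7, KDSR KO libraries lay below every CTRL library for 15 members, where 10.1% of all genes did, and above for 0, where 6.81% did. In DLD1, they lay above every CTRL library for 15 members and below for 10, where 12.1% and 27.2% of all genes did. In NCIH838, these numbers were 14 and 14, where 18.9% and 31.9% of all genes did. The 14 that lay above include ATP6V0D2, which entered only through its KDSR KO libraries. None of the single alternatives or left-out libraries gave a called member in HUH7. The share of TPM from mitochondrial DNA was 12.5%, 7.07% and 8.34% in the HUH7 CTRL libraries and 8.98% to 10.6% in HUH7 KDSR KO.

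In NCIH838, 5 of the 9 V0 members rose and 1 fell, where 15.7% of all genes were called higher and 26.8% lower. The 5 include ATP6V0D2, which entered the test only through its KDSR KO libraries. ATP6V0A1 (chromosome 17, 42458844 to 42522611, hg38), which encodes the form of subunit a best known from neurons, was at 16.7, 16.9 and 16.3 TPM in NCIH838 CTRL, against 28.2, 31.3 and 28.1 TPM in KDSR KO. Every KDSR KO library was well above every CTRL library, and the log2 difference was 0.78 ± 0.06 (limma adjusted p = 7.38e-08). In DLD1 it rose from 34, 34.6 and 38.6 TPM to 45.8, 40.7 and 43.9 TPM (0.28 ± 0.06, adjusted p = 0.00488 in limma), and its adjusted p was 0.0710 when DLD1 was fitted alone. In HUH7 it was at 28.4, 27.9 and 28.3 TPM in CTRL, against 26.6, 26.6 and 26.4 TPM in KDSR KO (-0.09 ± 0.06, adjusted p = 0.528 in limma). Its effects differed between the lines in all 3 pairs, by 0.36 ± 0.08 for DLD1 minus HUH7, 0.50 ± 0.08 for NCIH838 minus DLD1 and 0.86 ± 0.08 for NCIH838 minus HUH7 (limma adjusted p = 0.0262, 0.000757 and 2.84e-06).

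ATP6V0D2, a variant of subunit d known from osteoclasts and kidney, had almost no reads in CTRL. In NCIH838 it was at 0, 0.184 and 0.0612 TPM in CTRL, against 2.42, 3.38 and 2.78 TPM in KDSR KO. It rose, with a fitted log2(TPM + 1) difference of 1.83 ± 0.12 (limma adjusted p = 2.15e-08), but it entered the test only through its KDSR KO libraries. In DLD1 it was at 1, 3 and 2 reads in CTRL and at 14, 19 and 16 reads in KDSR KO. The groups did not overlap there either, but the mean of 0.623 TPM was below the minimum of 1 TPM, and the fit without that minimum gave a log2 difference of 0.89 ± 0.12 (limma adjusted p = 0.000391). In HUH7 it had 1 to 5 reads in each library of both groups. ATP6V0D1, the form of subunit d found in all tissues, was called in no line and kept at least 96.6% of the summed TPM of the d genes in the mean of every group.

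**Figure D3:**
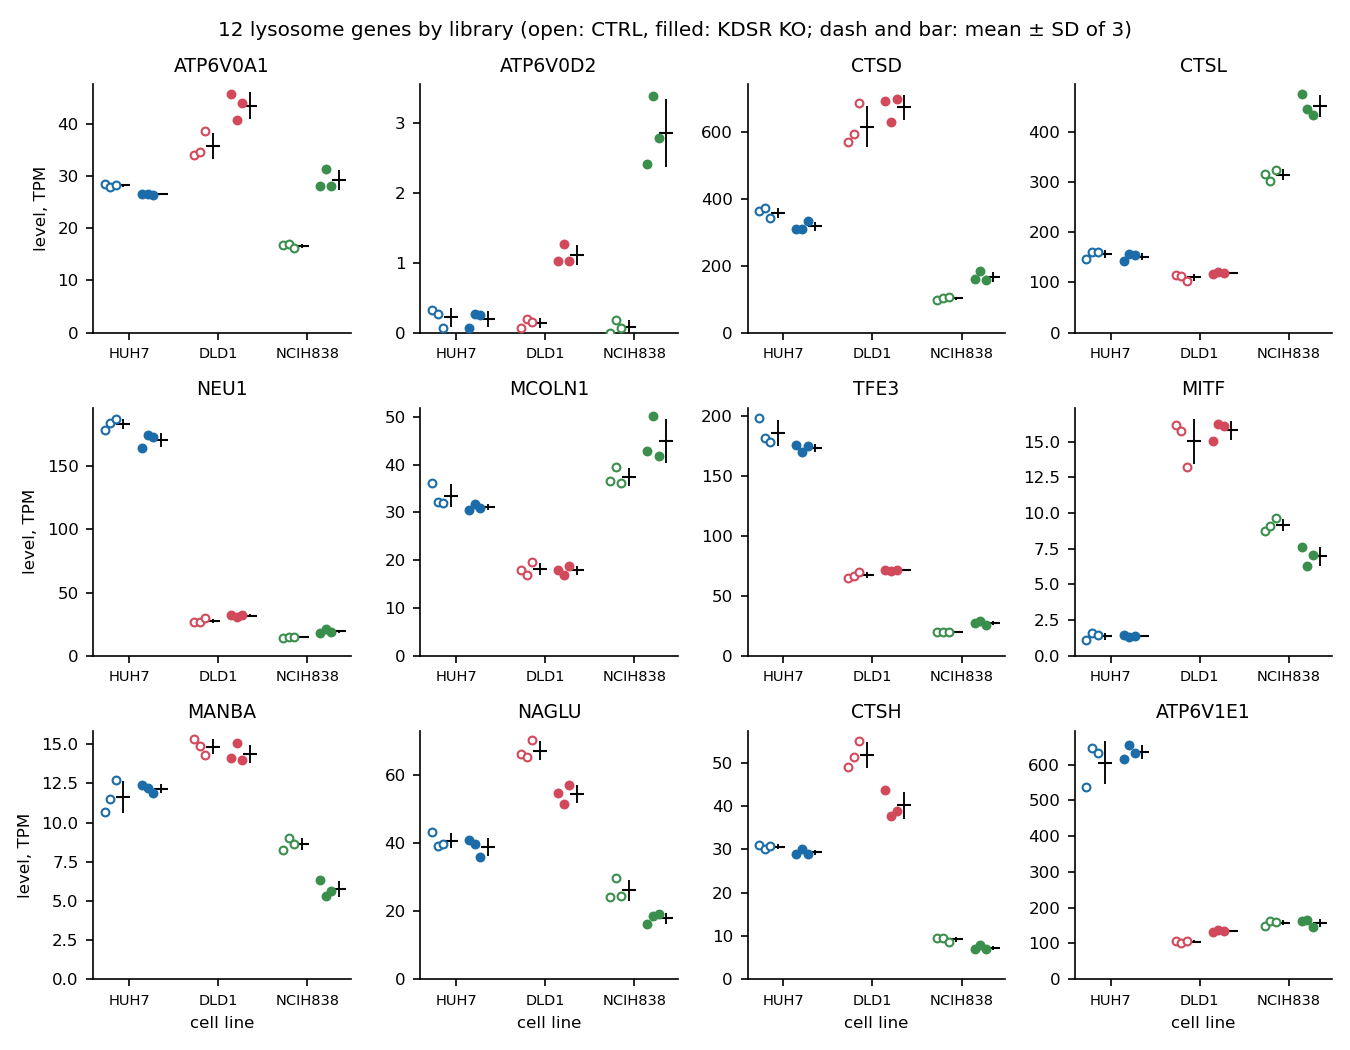
TPM of 12 lysosome genes in every library by line, open points CTRL, filled points KDSR KO, with the mean and SD of 3 beside them; each vertical axis starts at 0. In NCIH838 the filled points lie above all open points for ATP6V0A1, ATP6V0D2, CTSD, CTSL, NEU1, MCOLN1 and TFE3, and below them for MITF, MANBA, NAGLU and CTSH.

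The other V0 members moved less. ATP6V0E1 rose in NCIH838 from 258, 269 and 273 TPM to 326, 310 and 299 TPM (0.22 ± 0.05, limma adjusted p = 0.00129) and in DLD1 from 233, 254 and 242 TPM to 266, 277 and 261 TPM (0.14 ± 0.05, adjusted p = 0.0486), a DLD1 call lost in 17 of 28 alternatives. ATP6V0E2, its less abundant relative, fell in NCIH838 from 15.6, 17.1 and 17.0 TPM to 12.1, 12.5 and 11.6 TPM (-0.43 ± 0.08, limma adjusted p = 0.000647). Its gene body overlaps the antisense gene ATP6V0E2-AS1, listed at a mean of 3.42 TPM. Both small e subunits were thus called in NCIH838 in opposite directions. ATP6V0A2, the form of subunit a known from the Golgi, rose by 0.27 and ATP6V0B, a proteolipid of the rotor ring, rose by 0.21 in NCIH838 (limma adjusted p = 0.0234 and 0.0209). Both calls were lost when single NCIH838 libraries were left out, and that of ATP6V0B also with NCIH838 fitted alone. Over all alternatives the limma adjusted p was up to 0.0924 and 0.117. ATP6V0C, the main proteolipid of the ring, had pseudogenes in the table and the widest error of the V0 members, with a log2 difference of 0.32 ± 0.17 in NCIH838 (limma adjusted p = 0.156). ATP6V0A4 was at 5.78, 5.10 and 5.59 TPM in NCIH838 CTRL and, in KDSR KO, at 5.25, 4.05 and 4.14 TPM (-0.25 ± 0.10, limma adjusted p = 0.0612), with overlapping groups.

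The make-up of subunit a mRNA was compared as the share of each gene in the summed TPM of ATP6V0A1, ATP6V0A2, ATP6V0A4 and TCIRG1, the last of which encodes the osteoclast form a3 and is not among the 46. ATP6V0A1 made up 34.8% ± 0.929 of the sum in NCIH838 CTRL and 49.1% ± 2.15 in KDSR KO (SD, n = 3 each). In DLD1 its share was 34.7% ± 1.26 and 40.7% ± 0.358, and in HUH7 20.5% ± 2.29 and 20.5% ± 0.915. TCIRG1 moved the other way, from 39.9% ± 1.92 to 29.7% ± 0.624 in NCIH838 and from 52.6% ± 0.177 to 47.6% ± 0.723 in DLD1. When 1 share of a sum rises, the others must fall in total, though not each of them. In NCIH838, ATP6V0A4 went from 11.5% ± 1.10 to 7.54% ± 1.10 and ATP6V0A2 from 13.8% ± 0.268 to 13.7% ± 0.951. The TPM of TCIRG1 itself was not called in any line, at log2 differences of -0.10, -0.09 and -0.11 in HUH7, DLD1 and NCIH838. Over 9 such shares of subunits a, C, d, E, G and e, the groups did not overlap for 0 in HUH7, 6 in DLD1 and 6 in NCIH838. Shares of subunit a depend on each other. The 6 of each line include ATP6V0D2, at 1 to 3 reads in DLD1 CTRL and 0 to 3 in NCIH838 CTRL. In NCIH838 they also include ATP6V1C2, at a mean of 0.57% of the C genes in CTRL and 0.93% in KDSR KO. No such count was made over other gene families. An exact two-sided permutation test over 3 libraries against 3 cannot go below 0.1, and adjusted over the 27 tests the smallest p was 0.225.

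**Figure D4:**
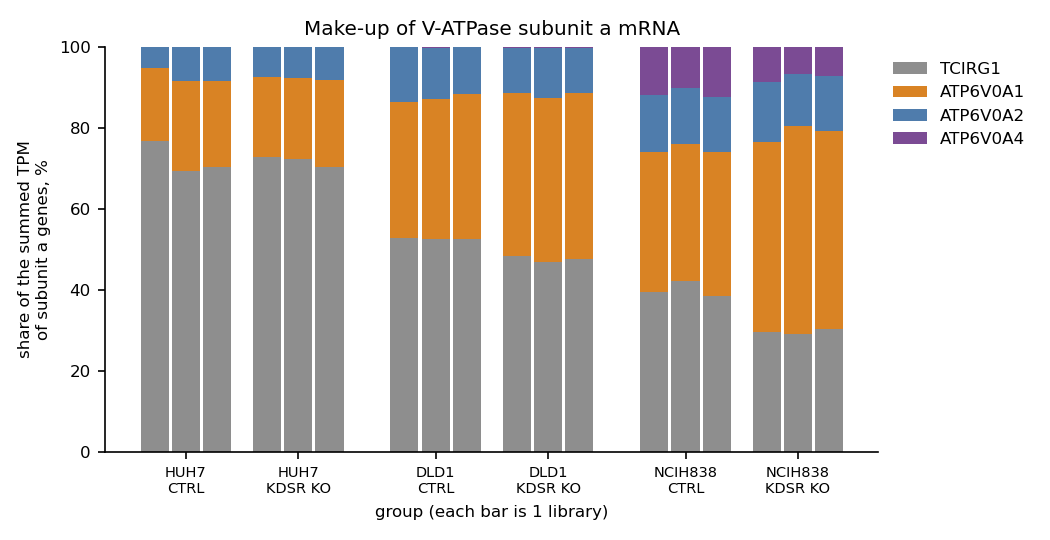
Share of each subunit a gene in their summed TPM, in percent, each bar 1 library, by line and group. The ATP6V0A1 part is larger in every KDSR KO library than in every CTRL library in DLD1 and NCIH838, and overlaps between groups in HUH7.

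Of the 5 membrane proteins, none was called in DLD1 and 2 were in NCIH838. Over all genes, 17.3% were called in DLD1 and 42.5% in NCIH838, so the NCIH838 count is near that share. MCOLN1 (chromosome 19, 7522626 to 7534009, hg38), a calcium channel of the lysosome with TCACGTGA at 2 places in the sequence above, rose in NCIH838 from 36.7, 39.6 and 36.2 TPM to 42.9, 50.2 and 41.9 TPM. The groups did not overlap, with a log2 difference of 0.25 ± 0.07 (limma adjusted p = 0.0118). The call was lost without KDSR KO replicate 2 of NCIH838, its highest library, and with NCIH838 fitted alone. The highest adjusted p in limma over all alternatives was 0.0638. CD63, a tetraspanin of late endosomes and exosomes, fell in NCIH838 from 240, 234 and 253 TPM to 226, 194 and 191 TPM (-0.25 ± 0.06, limma adjusted p = 0.00525). LAMP1 was at 87.7, 89.4 and 95.9 TPM in NCIH838 CTRL, against 87.8, 84.4 and 84.0 TPM in KDSR KO, with overlapping groups. LAMP1 and LAMP2, the main glycoproteins of the membrane, and SCARB2, which carries glucocerebrosidase to the lysosome, were called in no line. LAMP2 was called higher in DLD1 with median ratio scaling, with quantile normalization and with the GC trend removed. Without CTRL replicate 1 of HUH7, LAMP2 and SCARB2 were called lower in NCIH838 (limma adjusted p = 0.0458 and 0.0328). The log2 differences of LAMP1, LAMP2 and SCARB2 in NCIH838 were -0.09 ± 0.05, -0.20 ± 0.10 and -0.17 ± 0.10.

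All 7 cathepsins were called in NCIH838, 3 higher and 4 lower, where 42.5% of all genes were called (15.7% higher and 26.8% lower). CTSD (chromosome 11, 1752752 to 1764573, hg38) rose from 97.4, 105 and 107 TPM in NCIH838 CTRL to 160, 185 and 158 TPM in KDSR KO. The groups were far apart, with a log2 difference of 0.70 ± 0.07 (limma adjusted p = 3.59e-06). In DLD1 it was at 569, 594 and 687 TPM in CTRL, against 692, 630 and 698 TPM in KDSR KO (0.13 ± 0.07, limma adjusted p = 0.247), and in HUH7 at 363, 372 and 342 TPM and at 311, 310 and 333 TPM (-0.17 ± 0.07, limma adjusted p = 0.430). The NCIH838 effect was larger by 0.57 ± 0.11 than the DLD1 effect (limma adjusted p = 0.00216) and by 0.87 ± 0.11 than the HUH7 effect (adjusted p = 3.39e-05). CTSD remained, after its rise in NCIH838, below its level in either group of the other lines.

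CTSL, a cysteine endopeptidase, rose in NCIH838 from 315, 302 and 324 TPM to 475, 445 and 434 TPM (0.52 ± 0.06, limma adjusted p = 3.37e-06), and CTSB, a related enzyme, from 131, 142 and 136 TPM to 162, 180 and 156 TPM (0.28 ± 0.06, adjusted p = 0.00108). The groups did not overlap for either gene. The cathepsins that fell in NCIH838 were CTSH, by 0.31, CTSZ, by 0.24, CTSC, by 0.22, and CTSA, the carboxypeptidase that protects NEU1, by 0.20 on the log2 scale (limma adjusted p = 0.00112, 0.000299, 0.00909 and 0.0218). The calls of CTSA and CTSC were lost under some alternatives, at adjusted p of up to 0.131 and 0.0536.

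CTSH, CTSZ and CTSC also fell in DLD1. CTSH (chromosome 15, 78921058 to 78949574, hg38) was at 48.9, 51.4 and 54.9 TPM in DLD1 CTRL, against 43.8, 37.8 and 38.8 TPM in KDSR KO (-0.36 ± 0.06, limma adjusted p = 0.00181). Its groups did not overlap in DLD1 or in NCIH838, where they were at 9.53, 9.51 and 8.60 TPM and at 6.90, 7.77 and 7.0 TPM. The DLD1 falls of CTSC (-0.19 ± 0.06, limma adjusted p = 0.0436) and CTSZ (-0.13 ± 0.04, adjusted p = 0.0373) were near the threshold and were lost in 16 and 14 of the 28 alternatives.

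Of the 10 hydrolases and other luminal proteins, 2 rose and 5 fell in NCIH838, and 2 rose and 2 fell in DLD1. Over all genes, 15.7% were called higher and 26.8% lower in NCIH838, and 5.16% and 12.1% in DLD1. NEU1 (chromosome 6, 31857659 to 31862906, hg38) rose in NCIH838 from 13.8, 15.1 and 15.1 TPM to 18.3, 21.0 and 18.8 TPM and in DLD1 from 26.6, 26.9 and 29.7 TPM to 32.5, 30.6 and 32 TPM. The groups did not overlap in either line, with log2 differences of 0.38 ± 0.06 and 0.19 ± 0.06 (limma adjusted p = 0.00011 and 0.0369). The DLD1 call was lost in 7 of 28 alternatives, at an adjusted p of up to 0.115. In HUH7, NEU1 lay lower in each KDSR KO library than in any CTRL library, at -0.10 ± 0.06 (limma adjusted p = 0.494). IDS, the sulfatase that starts the breakdown of dermatan and heparan sulfate, rose in NCIH838 (0.27 ± 0.08, limma adjusted p = 0.0127) and DLD1 (0.25 ± 0.08, adjusted p = 0.0428). Both calls of IDS were lost under some alternatives, at adjusted p of up to 0.0566 and 0.143.

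NAGLU, which removes N-acetylglucosamine from heparan sulfate, fell in NCIH838 from 24.0, 29.7 and 24.2 TPM to 16.0, 18.4 and 19.1 TPM and in DLD1 from 66.0, 65.1 and 70.1 TPM to 54.6, 51.4 and 56.9 TPM. The groups did not overlap in either line, with log2 differences of -0.51 ± 0.08 and -0.30 ± 0.08 (limma adjusted p = 0.000192 and 0.0243). The DLD1 call was lost with median ratio scaling, with quantile normalization, without genes of mitochondrial DNA and rRNA and with the GC trend removed. It was also lost without CTRL replicate 3 or KDSR KO replicate 1 or 2 of DLD1. Over all alternatives the limma adjusted p was up to 0.119. IDS and NAGLU, which act on the same glycosaminoglycan, thus moved in opposite directions in both lines. GUSB, the beta-glucuronidase, fell in DLD1 from 77.1, 79.3 and 85.9 TPM to 69.0, 67.5 and 67.0 TPM (-0.25 ± 0.04, limma adjusted p = 0.00188). It also fell in NCIH838 (-0.16 ± 0.04, limma adjusted p = 0.00736, and 0.0823 or less under the alternatives), and the difference between these effects was not called (0.08 ± 0.06, limma adjusted p = 0.388).

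MANBA, LIPA and PPT1 were called lower in NCIH838 and were not called in DLD1. MANBA, the beta-mannosidase, went from 8.27, 9.0 and 8.66 TPM to 6.32, 5.31 and 5.62 TPM (-0.52 ± 0.07, limma adjusted p = 2.7e-05), and its fall was larger than the change in DLD1 by 0.47 ± 0.10 (limma adjusted p = 0.00385). LIPA, the acid lipase that frees cholesterol from its esters, went from 46.9, 54.8 and 52.7 TPM to 43.5, 32 and 37.5 TPM (-0.45 ± 0.10, limma adjusted p = 0.00213). PPT1, which removes palmitate from proteins, went from 161, 158 and 176 TPM to 141, 114 and 125 TPM (-0.38 ± 0.08, limma adjusted p = 0.00101). The groups of all 3 genes did not overlap in NCIH838. In DLD1 every KDSR KO library was also below every CTRL library for LIPA, at 88.4 to 89.4 against 93.8 to 107 TPM (-0.19 ± 0.10, limma adjusted p = 0.212), and for PPT1, at 175 to 185 against 195 to 204 TPM (-0.16 ± 0.08, limma adjusted p = 0.183, and 0.0408 when DLD1 was fitted alone). The NCIH838 effect minus the DLD1 effect was not called for LIPA (-0.26 ± 0.14, limma adjusted p = 0.220) or PPT1 (-0.23 ± 0.11, limma adjusted p = 0.163). The gene body of PPT1 overlaps that of CAP1 on the opposite strand, at a mean of 288 TPM. GAA, the acid alpha-glucosidase, TPP1, a tripeptidyl peptidase, and GRN, the progranulin precursor, were called in no line. TPP1, at 20.3 to 24.3 TPM in NCIH838 CTRL and 23.4 to 27.6 TPM in KDSR KO, was just outside the threshold there (0.17 ± 0.07, limma adjusted p = 0.0551). It was called higher in NCIH838 with median ratio scaling, with quantile normalization, with the replicate block, with limma voom, with the GC trend removed and without CTRL replicate 2 or KDSR KO replicate 1 of NCIH838, at an adjusted p down to 0.00902.

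The transcription factors moved apart from each other in NCIH838. TFE3 rose from 19.9, 19.7 and 19.6 TPM to 27.6, 29.1 and 25.9 TPM (0.46 ± 0.05, limma adjusted p = 3.01e-06). MITF fell from 8.75, 9.11 and 9.62 TPM to 7.59, 6.28 and 7.04 TPM (-0.35 ± 0.09, limma adjusted p = 0.00608). TFEB was at 2.75, 2.77 and 2.61 TPM in CTRL, against 1.82, 2.28 and 2.09 TPM in KDSR KO, all lower but not called (-0.28 ± 0.15, limma adjusted p = 0.153). In DLD1, TFE3 was at 64.9, 66.8 and 70.0 TPM in CTRL, against 71.9, 71.2 and 71.9 TPM in KDSR KO, without overlap but not called (0.09 ± 0.05, limma adjusted p = 0.215). The TFE3 effect in NCIH838 was larger by 0.37 ± 0.07 than in DLD1 (limma adjusted p = 0.00211) and larger by 0.56 ± 0.07 than in HUH7 (adjusted p = 3.71e-05). These factors are controlled largely through phosphorylation and nuclear entry, which mRNA levels do not measure.

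The members called in DLD1 and NCIH838 were set side by side. In all, 9 were called in both, which was 81.8% of the 11 DLD1 calls and 36% of the 25 NCIH838 calls, and all 9 had the same direction. Over all genes, 1619 were called in both, which was 60.5% of the 2674 DLD1 calls and 23.3% of the 6945 NCIH838 calls, and 92.3% of them had the same direction. No test of this difference in shares was made. ATP6V0A1, ATP6V0E1, NEU1 and IDS rose in both, and CTSC, CTSH, CTSZ, GUSB and NAGLU fell in both. Of these 9, only CTSH kept its call in both lines under every alternative and left-out library. In DLD1, the call was lost in 17 of 28 for ATP6V0E1, 16 for CTSC, 14 for CTSZ and 13 for IDS. It was lost there in 7 for NEU1, 7 for NAGLU and 1 for ATP6V0A1. The other 19 members, those not tested included, were called in neither line. Over the 40 members tested in both, 25 had the same sign (62.5%, against 64.9% of the 13467 genes tested in both), Pearson's r was 0.52 and Spearman's rho 0.51, as a description across genes measured in the same libraries. The correlation of HUH7 with NCIH838 was -0.25 over 41 members, with 14 of the same sign. That of HUH7 with DLD1 was 0.37 over 42 members, with 28 of the same sign. Correlations were not taken over all genes, nor were sign counts for the pairs with HUH7.

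**Figure D5:**
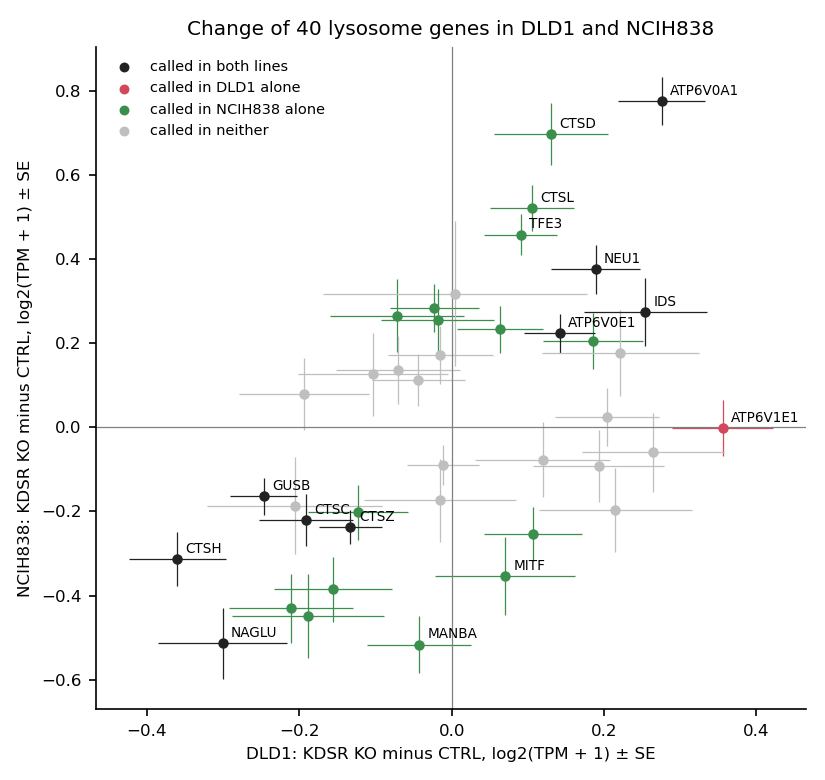
Log2(TPM + 1) difference between KDSR KO and CTRL in DLD1 (horizontal) and NCIH838 (vertical) for the 40 lysosome genes tested in both, each point 1 gene with SE bars, coloured by the lines in which it was called. The 9 genes called in both lie at upper right and lower left, and CTSD, CTSL and TFE3 are high on the NCIH838 axis alone.

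Differences of the effects between lines were tested for 40 members. NCIH838 differed from HUH7 for 18 of them, 10 with a higher and 8 with a lower effect, where 33.7% of all genes differed (12.2% higher and 21.6% lower). NCIH838 differed from DLD1 for 9, 5 higher and 4 lower, where 18.0% of all genes did (9.42% higher and 8.57% lower). DLD1 differed from HUH7 for 1, ATP6V0A1, with a higher effect in DLD1, where 2.79% of all genes did (1.74% higher and 1.04% lower).

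The promoter letters were set beside the calls. In NCIH838, of the 11 members with CACGTG in the window, 4 rose (ATP6V0B, CTSD, MCOLN1 and NEU1), 3 fell (ATP6V0E2, CD63 and CTSA) and 4 were not called. Of the 23 members with a window that lacked it, 5 rose, 7 fell, 9 were not called and 2 were not tested. Over all genes, 42.5% were called in NCIH838 (15.7% higher and 26.8% lower) and 17.3% in DLD1. In DLD1, NEU1 was the only member with CACGTG that was called, and its call was lost in 7 of 28 alternatives. Other members with CACGTG were called there under some alternatives. ATP6V0B and ATP6V1G1 were higher with quantile normalization, with limma voom and with the GC trend removed. Both were also higher with DLD1 fitted alone and without genes of mitochondrial DNA and rRNA. CD63 was higher with quantile normalization and CTSD with the GC trend removed. ATP6V0E2 was lower without CTRL replicate 1 or KDSR KO replicate 1 of DLD1. ATP6V0A1, whose 150 bases are shown above without the letters, had the largest NCIH838 effect among members that were above 1 TPM in CTRL.

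Other lysosome genes, from lists that overlap none of the members, also moved in both directions. Of 36 other hydrolases tested, 7 rose and 16 fell in NCIH838, and 2 rose and 5 fell in DLD1. These were 63.9% called in NCIH838, against 42.5% of all genes, and 19.4% in DLD1, against 17.3%. DNASE2, the acid nuclease that digests DNA, fell in NCIH838 (-0.55 ± 0.07, limma adjusted p = 9.22e-06), and HGSNAT, the acetyltransferase of heparan sulfate breakdown, fell in DLD1 (-0.35 ± 0.07, adjusted p = 0.00259). Of 27 other membrane proteins tested in NCIH838, 5 rose and 9 fell, among them the sialic acid exporter SLC17A5, from 59.4 to 34.2 TPM. In DLD1, 1 rose and 2 fell of 26. The shares called were 51.9% and 11.5%.

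Of 23 genes that sort enzymes to the lysosome, 2 rose and 5 fell in NCIH838, and 0 rose and 4 fell in DLD1. The shares called, 30.4% and 17.4%, were below and near those of all genes (42.5% and 17.3%). SORT1, a sorting receptor, and GNPTAB, which makes the mannose 6-phosphate tag, fell in both lines. Of 13 further V-ATPase subunits and assembly factors, 0 rose and 6 fell in NCIH838 (46.2% called) and none was called in DLD1. Of 28 genes that control the TFEB family, 6 rose and 6 fell in NCIH838, and 1 rose and 4 fell in DLD1, which were 42.9% and 17.9% called, near the shares of all genes. LAMTOR1, LAMTOR2 and RRAGA, which hold mTORC1 at the lysosome, fell in DLD1 by 0.28, 0.30 and 0.26 on the log2 scale. In HUH7, none of these 5 lists had a called gene.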

How the data were processed

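RNA was sequenced from 18 libraries. The authors deposited TPM values for 27166 genes, with gene identifiers, positions and lengths; per the submitters' processing notes, reads were counted with featureCounts 2.0.0 on hg38. The aligner, the strand setting and the treatment of multiply mapped reads are not given in the sources used here. TPM times gene length gave whole reads for 100% of 488988 values within 0.01 reads, from which depth was taken (17039634 to 20385767 reads). Per the labels, the replicates are biological triplicates.

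Levels were taken as log2(TPM + 1), which pulls differences of low genes toward 0, and limma 3.58.1 under R 4.3.3 fitted 1 mean for each group to all 18 libraries (lmFit, then eBayes, robust and with a trend). A gene entered if it averaged 1 TPM or more over the 6 libraries of any line (19869 genes). KDSR KO p-values were adjusted by Benjamini-Hochberg over genes at 1 TPM or more in that line, and differences between effects over the 12558 genes at that level in all lines. The procedure was tested on simulated data. Alternatives were a pseudocount of 0.1, no minimum, a minimum of 5 TPM, median ratio scaling, quantile normalization, leaving out genes of mitochondrial DNA and rRNA, a replicate block, each line fitted alone, limma voom on recovered reads (not the main test, since TPM are not counts), leaving out each library and, added after the data were seen, removal of the GC trend. Coordinates are those of GENCODE 29 on hg38. Promoter sequences came from RefSeq. The members, lists and rules for naming genes were chosen with earlier results of these data known: every member could be named, with values by library for members called in any line, the 3 transcription factors, LAMP1, LAMP2, CTSD and the largest differences between lines, and up to 3 called genes per further list, line and direction.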

Additional observations from a re-analysis of the deposited data

Results flagged for a closer look

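The KDSR KO effect on these lysosome genes differed between lines in 28 tests of the difference itself (limma on log2(TPM + 1), adjusted p under 0.05 over 12558 genes). Of 40 members tested per pair, 2.5% differed for DLD1 minus HUH7, 45% for NCIH838 minus HUH7 and 22.5% for NCIH838 minus DLD1. Over all genes these shares were 2.79%, 33.7% and 18.0%, so the shares that involve DLD1 are near those of all genes. Comparisons that involve the same line share its libraries. The tests give sizes on the log2 scale, as the effect in the line named first minus that in the line named second.

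For DLD1 minus HUH7, ATP6V0A1 differed by 0.36, and the call was lost in 9 of 27 alternatives, at an adjusted p of up to 0.0806. For NCIH838 minus DLD1, the effect was higher for CTSD (0.57), ATP6V0A1 (0.50), CTSL (0.42), TFE3 (0.37) and CTSB (0.31). It was lower for MANBA (-0.47), MITF (-0.42), CD63 (-0.36) and ATP6V1E1 (-0.36). For ATP6V1E1 the difference comes with a rise in DLD1 and overlapping groups in NCIH838.

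For NCIH838 minus HUH7, the effect was higher for CTSD (0.87), ATP6V0A1 (0.86), CTSL (0.56), TFE3 (0.56), NEU1 (0.48), ATP6V1F (0.44), CTSB (0.37), MCOLN1 (0.36), TPP1 (0.31) and ATP6V0E1 (0.31). It was lower for MANBA (-0.58), LIPA (-0.52), PPT1 (-0.45), NAGLU (-0.45), MITF (-0.37), CD63 (-0.30), CTSH (-0.25) and CTSZ (-0.17). ATP6V1F and TPP1 were called in neither line alone. The difference for MITF was lost in 9 of 26 alternatives against DLD1 and in 14 of 26 against HUH7. Against HUH7, that for CTSH was lost in 17 of 27, CTSZ in 14, TPP1 in 4 and CD63 in 2. HUH7 and NCIH838 differ in day of harvest as well as in line, which cannot be told apart.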

How the results depend on the processing

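In HUH7, 0 members were called under every setting, while calls over all genes went from 0 to 9 with no minimum, 2 with median ratio scaling, 2 with quantile normalization, 5 without genes of mitochondrial DNA and rRNA, 1 with the replicate block, 3 with the GC trend removed, and 0 to 8 when a library was left out; unadjusted, 1806 genes had a p under 0.05 in limma. In DLD1, members called higher went from 5 to 3 with a pseudocount of 0.1, 3 with no minimum, 9 with median ratio scaling, 13 with quantile normalization, 8 without genes of mitochondrial DNA and rRNA, 3 with the replicate block, 9 with limma voom and 12 with the GC trend removed. Members called lower went from 6 to 3 with quantile normalization. Leaving out a library gave 2 to 9 higher and 3 to 6 lower, and 1609 to 3286 calls over all genes. It was 9 higher without HUH7 CTRL replicate 1. It was 3 higher without HUH7 CTRL replicate 2, HUH7 KDSR KO replicate 2, DLD1 CTRL replicate 3 or NCIH838 CTRL replicate 2, and 2 without DLD1 CTRL replicate 1 or any DLD1 KDSR KO library. It was 3 lower without DLD1 CTRL replicate 3 or DLD1 KDSR KO replicate 2. Under all alternatives and left-out libraries, 3 of 11 DLD1 calls and 18 of 25 NCIH838 calls held. The 18 include ATP6V0D2, which entered the test only through its KDSR KO libraries. In NCIH838, the calls of IDS, CTSA, MCOLN1, CTSC, ATP6V0B, GUSB and ATP6V0A2 did not hold. NCIH838 gave 11 to 13 higher and 11 to 14 lower when a library was left out.

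For DLD1 minus HUH7, members with a higher effect went from 1 to 2 with no minimum, 4 with median ratio scaling, 4 with quantile normalization, 4 without genes of mitochondrial DNA and rRNA, 0 with the replicate block, 3 with limma voom and 7 with the GC trend removed, and were 0 to 3 when a library was left out. Over all genes, the 350 calls became 211 with the replicate block, 1033 with the GC trend removed and 194 to 448 when a library was left out. For NCIH838 minus HUH7, members with a lower effect went from 8 to 5 with no minimum and 5 with the replicate block, and were 4 to 10 when a library was left out. For NCIH838 minus DLD1, they went from 4 to 7 with median ratio scaling, 8 with quantile normalization, 7 with limma voom and 9 with the GC trend removed, and were 3 to 7 when a library was left out. Shares of V-ATPase subunits whose groups did not overlap were 0 to 3 in HUH7 when a library was left out. With the GC trend removed, GAA was lower in DLD1 CTRL than in HUH7 CTRL, at -0.16 (limma adjusted p = 0.00465), against a difference of 0.05 as deposited. The cause of these shifts was not tested. Deviations of same-numbered CTRL and KDSR KO libraries from their group means had correlations of -0.067 to 0.252. In NCIH838 these were 0.093, 0.252 and 0.081, against -0.150 to 0.069 for differently numbered libraries. Whether the numbers pair samples is therefore not settled, and the replicate block was fitted as an alternative. At this depth, genes such as ATP6V0D2 in CTRL and ATP6V1G2 rest on few reads, and the number of libraries limits the exact tests.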
